A study of Mus musculus with 12 samples.

Results

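Megalin and its partners form an uptake system that extraembryonic endoderm is known for. The genes described here are Lrp2, Amn, Cubn and Vldlr, which encode endocytic receptors or parts of them, Dab2, which encodes their adaptor, Apoe, which encodes a ligand, and Gata4, Gata6 and Sox17, which encode endoderm transcription factors. They were followed in mouse embryonic stem (ES) cells. All probes whose symbol in the platform annotation was one of these 9 genes were taken, without regard to their values: 21 probes of the 45281 on the array.

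The cells were E14, a male ES cell line of strain 129/Ola, grown without feeder cells on gelatin in serum. Deleted cells carried the genotype HDAC1-/-; HDAC2-/wt with CreER, a Cre recombinase fused to an estrogen receptor domain, and were taken at day 4. Wild type cells were taken at day 0. Each genotype was cultured without leukaemia inhibitory factor (LIF), the cytokine that holds mouse ES cells in the undifferentiated state, for 4 days, or with LIF, which gives 4 groups of 3 one-colour Illumina arrays each: deleted without LIF, wild type without LIF, deleted with LIF and wild type with LIF. Per the labels, 4-hydroxytamoxifen (OHT, the ligand that activates CreER) was given at 1 uM for 16 h, and the agent field names OHT for every one of the 12 samples, so the wild type cells carry that label too. Genotype and day cannot be told apart, since every deleted sample is of day 4 and every wild type sample of day 0. What drives CreER, and whether the deleted cells are 1 clone, is not given in the sources used here. Nothing in the labels says that the 3 arrays of a group are separate cultures, so the p-values measure only the spread between these arrays, which may be technical.

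A conflict of names bears on every statement about LIF. The deposited processed table names its columns by sample, and the non-normalized table numbers them as the sample descriptions do. When the 12 columns of each were set against each other, every non-normalized column ranked the probes exactly as a processed column of another name did (Spearman's rho of 1, next highest 0.836). The 2 names gave the same genotype in 12 of 12 cases, the same culture in 0 of 12 and the same replicate number in 0 of 12. The names of the processed table are used throughout. Under the other naming the same 3 arrays stay together in each group, the 2 comparisons of deleted with wild type cells exchange their cultures, and every difference between cultures changes sign. Same-numbered arrays stay together between genotypes (3 of 3 pairs in each culture) but not between cultures (0 of 3 in each genotype), so results with the replicate number as a block depend on the naming.

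Between 14872 and 18907 probes (32.8% to 41.8%) were detected per array at a detection p under 0.05. The log2 intensity at that limit, called the detection floor here, was 6.44 to 6.61 depending on the array. Of the deleted genes, Hdac1 had 0 probes named for it. Hdac2 had 2, of which the 1 well detected probe (ILMN_2640441) lay between 11.05 and 11.25 in deleted cells with LIF, against 11.24 to 11.45 in wild type cells with LIF, and differed by -0.24 ± 0.12 (SE, limma, adjusted p = 0.241). Without LIF it lay between 10.85 and 11.17 in deleted cells and between 11.03 and 11.26 in wild type cells (-0.13 ± 0.12, adjusted p = 0.551). The difference passed in neither culture, and where the probe lies relative to the deleted part of the gene was not analysed here, so it does not check the labels.

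In the visceral endoderm that surrounds the early mouse embryo, and in the kidney tubule and gut, large cell-surface receptors take up proteins, vitamins and lipids from the outside. Megalin, encoded by Lrp2, is a giant member of the low density lipoprotein (LDL) receptor family, and cubilin, encoded by Cubn, is a receptor without a membrane-spanning part that reaches the surface only with amnionless, encoded by Amn. Disabled-2, encoded by Dab2, links the tails of such receptors to clathrin and the AP-2 adaptor. Gata4, Gata6 and Sox17 encode factors that drive ES cells towards primitive endoderm, the source of the visceral and parietal endoderm.

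The promoters of the 3 genes that give the group its name are shown because GATA and SOX proteins bind DNA through short cores that can be looked for in them. Each sequence is the 250 bases before a gene start of the RefSeq annotation, build GRCm38.p6, 5′ to 3′ on the strand of the gene. Amn starts after chr12:111270846-111271095 on the plus strand, and Lrp2 after chr2:69586030-69586279 on the minus strand. Dab2 has a first start after chr15:6299539-6299788 and a second after chr15:6386498-6386747, both on the plus strand. Capitals mark the single match to the GATA core found.
Amn: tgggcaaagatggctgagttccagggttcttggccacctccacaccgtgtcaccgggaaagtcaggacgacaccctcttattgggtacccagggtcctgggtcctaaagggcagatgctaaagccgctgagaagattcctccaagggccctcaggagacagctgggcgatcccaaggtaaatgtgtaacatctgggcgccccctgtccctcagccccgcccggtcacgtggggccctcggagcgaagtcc
Lrp2: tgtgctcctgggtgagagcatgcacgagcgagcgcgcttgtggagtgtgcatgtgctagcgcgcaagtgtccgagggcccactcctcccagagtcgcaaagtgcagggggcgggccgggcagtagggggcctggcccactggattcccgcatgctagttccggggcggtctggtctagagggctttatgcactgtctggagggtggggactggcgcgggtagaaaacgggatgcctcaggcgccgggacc
Dab2 first start: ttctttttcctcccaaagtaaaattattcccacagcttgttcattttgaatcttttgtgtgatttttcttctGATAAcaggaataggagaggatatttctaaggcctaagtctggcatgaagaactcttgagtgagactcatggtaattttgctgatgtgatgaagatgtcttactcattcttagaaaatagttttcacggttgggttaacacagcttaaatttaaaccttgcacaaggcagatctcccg
Dab2 second start: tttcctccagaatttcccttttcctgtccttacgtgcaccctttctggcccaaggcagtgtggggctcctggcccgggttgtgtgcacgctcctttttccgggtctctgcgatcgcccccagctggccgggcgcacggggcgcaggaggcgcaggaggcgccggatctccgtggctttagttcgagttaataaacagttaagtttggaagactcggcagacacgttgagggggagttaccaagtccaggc
The GATA core was searched as GATAA and its reverse complement TTATC, and the SOX core as ACAAT and its reverse complement ATTGT. Of the 9 genes, 6 had promoters in the RefSeq table, 10 promoters in all. A GATA core stood in 1 of the 10, the first start of Dab2, 178 bases before the start, and a SOX core in 2, a start each of Vldlr and Apoe, while 7 held neither. Among all 32851 mouse promoters of the same length, 22.6% held the GATA core, 27.7% the SOX core and 8.32% both. The letters shown for Amn and Lrp2 held neither core in this window, which says nothing of more distant elements.

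A probe was retained for testing when it was detected on all 3 arrays of at least 1 group. Of the 21 probes, 10 were retained, covering 6 of the 9 genes: Amn, Lrp2, Dab2 with 3 probes, Vldlr with 3, Apoe and Gata6. The 11 others (Cubn, Gata4, both of Sox17, and further probes of Lrp2, Dab2, Vldlr and Gata6) lay between 5.67 and 6.80 on the log2 scale, and only 5 of their 132 array readings had a detection p under 0.05. A probe that is retained through the group in which it is bright had to pass there, so the retained probes do not stand for all members. Levels of different probes are not comparable, and each probe is followed only across the groups.

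Culture and genotype went with different genes. Leaving out LIF was accompanied by higher Lrp2, Dab2, Vldlr and Apoe in both genotypes, with Lrp2 at 4.67-fold in deleted cells and 4.03-fold in wild type cells, and Amn passed the test in neither. Loss of Hdac1 and of 1 Hdac2 allele was accompanied by higher Amn in both cultures, by lower Vldlr, and, with LIF, by slightly higher Dab2. Of the 10 retained probes, 7 were higher and 0 lower without LIF than with it in deleted cells (4.15% of the 15999 retained probes of the array were higher and 4.60% lower, 8.75% in all) and the same numbers, 7 and 0, in wild type cells (9.37% higher and 8.64% lower, 18.0% in all). Between deleted and wild type cells 3 were higher and 1 lower with LIF (4.78% and 2.42%, 7.19% in all), and 1 was higher and 3 lower without LIF (4.28% and 3.44%, 7.72% in all). The 2 groups did not overlap for 9 of the 10 probes between cultures in deleted cells and for 8 in wild type cells (28.5% and 32.5% of all retained probes), and for 5 between genotypes with LIF and 6 without LIF (28.9% and 26.9%). These counts are of probes, and Dab2 and Vldlr have several that are not independent: the genes called numbered 4, 4, 3 and 2 in the same order. The 8 without overlap in wild type cells include the dim Dab2 probe ILMN_2543173, retained through wild type cells without LIF alone. The 6 between genotypes without LIF include Gata6, retained through deleted cells without LIF alone. Each had to be bright in that group, which favours these 2 counts. Tests were limma's moderated test across all retained probes with Benjamini-Hochberg adjustment at 0.05, and a log2 difference is given with its standard error (SE).

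**Figure D1:**
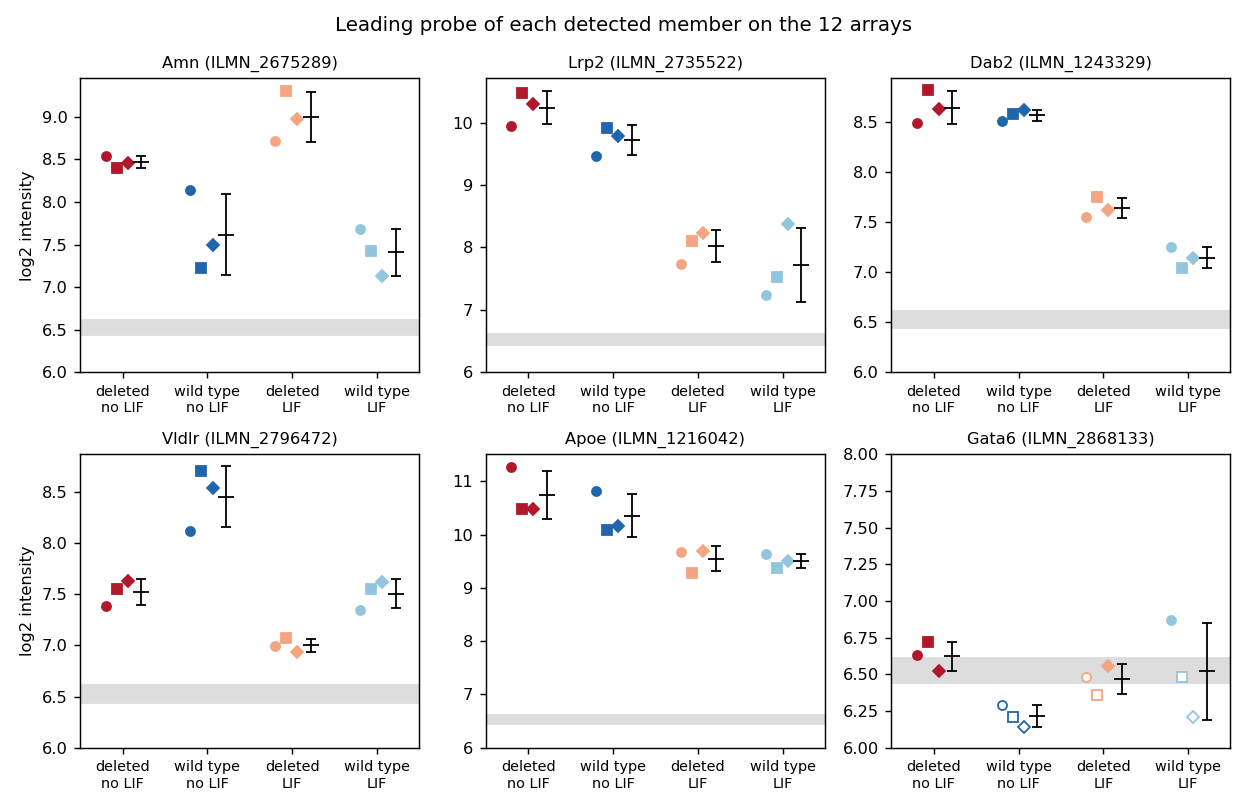
Log2 intensity (y axis, a scale of its own in each panel) of the leading probe of the 6 genes with a retained probe, on each of the 12 arrays. The 4 groups stand side by side, circles, squares and diamonds are replicates 1, 2 and 3, bars are the mean and SD, open symbols are readings with a detection p of 0.05 or more, and the grey band is the range of the detection floor (6.44 to 6.61). Lrp2, Dab2 and Apoe are higher in both groups without LIF, Amn is higher in both deleted groups, and Gata6 lies at the floor.

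Lrp2, the megalin gene on chromosome 2, was measured by probe ILMN_2735522, detected on all 12 arrays. Its log2 intensity was 9.95, 10.47 and 10.30 in deleted cells without LIF and 9.46, 9.92 and 9.78 in wild type cells without LIF. With LIF it was 7.73, 8.10 and 8.23 in deleted cells and 7.23, 7.53 and 8.38 in wild type cells. All 6 arrays without LIF stood above all 6 with LIF, and the third wild type array with LIF stood well above the other two of its group. The difference without against with LIF was 2.22 ± 0.24 in deleted cells (limma, adjusted p = 9.32e-05) and 2.01 ± 0.24 in wild type cells (adjusted p = 7.47e-05). These are bulk RNA samples, in which more cells that express a gene and more RNA in each cell cannot be told apart.

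The genotypes differed less in Lrp2. Deleted cells averaged 10.24 ± 0.27 without LIF, against 9.72 ± 0.24 in wild type cells (SD, n = 3 each, log2), and the groups did not overlap. That difference of 0.52 ± 0.24 missed the threshold (limma, adjusted p = 0.215), and passed with the replicate number as a block (adjusted p = 0.0323), though not with the numbers of the other naming (adjusted p = 0.0919). With LIF the averages were 8.02 ± 0.26 in deleted cells and 7.71 ± 0.59 in wild type cells, and the groups overlapped (0.31 ± 0.24, adjusted p = 0.492). The order of the groups was therefore deleted without LIF, wild type without LIF, deleted with LIF, wild type with LIF, and only the step between the cultures was larger than the spread in the main test. The genotype difference in the one culture did not pass against that in the other (interaction 0.21 ± 0.34, adjusted p = 0.969). The other Lrp2 probes, ILMN_3117209 and ILMN_1233247, annotated to the same transcript, were detected on 1 and 0 of the 12 arrays and add no measurement.

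Amn, on chromosome 12, has 1 probe (ILMN_2675289), detected on all 12 arrays. Its log2 intensity was 8.72, 9.31 and 8.98 in deleted cells with LIF, against 7.68, 7.42 and 7.13 in wild type cells with LIF. Without LIF it was 8.54, 8.40 and 8.46 in deleted cells, against 8.14, 7.22 and 7.49 in wild type cells. Every deleted array lay above every wild type array, in both cultures. Deleted cells exceeded wild type cells by 1.59 ± 0.21 with LIF (3.02-fold, limma, adjusted p = 0.000996) and by 0.85 ± 0.21 without LIF (1.8-fold, adjusted p = 0.0267).

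The call for Amn with LIF held whichever of the 12 arrays was left out, at 1.44 to 1.73. The call without LIF was less firm. It was lost when wild type replicate 2 or 3 or any of the 3 deleted arrays of that culture was left out (adjusted p = 0.0571 to 0.116), in a fit of those 2 groups alone (adjusted p = 0.0611) and after the neqc correction (1.12, adjusted p = 0.051). The first wild type array without LIF, at 8.14, was the closest to the deleted cells.

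In deleted cells Amn averaged 8.46 ± 0.07 without LIF and 9.00 ± 0.29 with LIF (SD, n = 3 each), groups that did not overlap and differed by -0.54 ± 0.21 (limma, adjusted p = 0.149, and 0.0493 in a fit of those 2 groups alone). In wild type cells it averaged 7.62 ± 0.47 without LIF and 7.41 ± 0.28 with LIF, which overlapped (0.21 ± 0.21, adjusted p = 0.545). The smaller genotype difference without LIF than with it was not established: the interaction was -0.75 ± 0.30 with an adjusted p of 0.644 (limma). Across the 10 retained probes 0 interactions passed, as did 0.0188% of all retained probes (0.00625% higher and 0.0125% lower). At an unadjusted p under 0.05 the interaction counted 7 of the 10 probes and 6.96% of all retained probes. The 7 were Amn, the bright Dab2 probes, the retained Vldlr probes and Gata6. Probes of the same gene are not independent, and Gata6 lies at the detection floor.

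Cubn, whose protein depends on amnionless to reach the membrane, has 1 probe (ILMN_1224851), which was detected on 1 of the 12 arrays, a wild type array without LIF, at a log2 intensity of 6.65. It was not tested. Amn was thus measured well above the detection floor in cells in which its receptor partner was not detected by this probe, whose ability to detect Cubn was not checked here.

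Vldlr, on chromosome 19, encodes the very low density lipoprotein receptor, a relative of megalin that also binds apolipoprotein E and reelin. Its leading probe (ILMN_2796472) read 7.38, 7.55 and 7.63 in deleted cells without LIF, against 8.12, 8.70 and 8.54 in wild type cells without LIF. With LIF it read 6.99, 7.07 and 6.94 in deleted cells, against 7.35, 7.55 and 7.62 in wild type cells. Every deleted array stood below every wild type array of its culture. Unlike Amn, Vldlr fell in deleted cells: by 0.94 ± 0.14 without LIF on the log2 scale (1.92-fold lower, limma, adjusted p = 0.0021) and by 0.50 ± 0.14 with LIF (1.42-fold lower, adjusted p = 0.0468).

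The other retained Vldlr probes followed the first closely, with a lowest correlation of 0.98 between probes over the 12 arrays. Without LIF both ILMN_2515601 and ILMN_1218264 gave -0.84 (limma, adjusted p = 0.00211 and 0.0035). With LIF they gave -0.37 (adjusted p = 0.0926) and -0.34 (adjusted p = 0.151), which passed with the replicate number as a block (adjusted p = 0.0196 and 0.0436), though not with the numbers of the other naming (adjusted p = 0.0608 and 0.141). The call of the leading probe with LIF was lost when any of 8 of the 12 arrays was left out: wild type replicates 2 and 3 and all 3 deleted replicates with LIF, wild type replicate 3 without LIF, and deleted replicates 2 and 3 without LIF (adjusted p = 0.0571 to 0.153). Median scaling was run on the non-normalized intensities, so the input changed as well as the normalization. After it, Vldlr kept its direction on all 3 probes but passed in neither genotype comparison (adjusted p = 0.164 to 0.172 without LIF).

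Without LIF Vldlr was higher in both genotypes. In deleted cells the leading probe gave 0.52 ± 0.14 (limma, adjusted p = 0.0368) and the other two 0.48 and 0.50. In wild type cells it gave 0.95 ± 0.14 (adjusted p = 0.000407) and the other two 0.95 and 1.00. The highest level was that of wild type cells without LIF (8.46 ± 0.30), and the lowest that of deleted cells with LIF (7.00 ± 0.07). Deleted cells without LIF (7.52 ± 0.13) and wild type cells with LIF (7.50 ± 0.14) lay between them, with overlapping ranges. The call of the leading probe in deleted cells was lost when any of 7 of the 12 arrays was left out: wild type replicate 2 and deleted replicates 1, 2 and 3 with LIF, or wild type replicate 3 and deleted replicates 2 and 3 without LIF (adjusted p = 0.0515 to 0.127). The other two lost it without 4 and 7 of the arrays, deleted replicates 1 and 2 with LIF and 2 and 3 without LIF among them for both (adjusted p = 0.0531 to 0.15). Median scaling ended the calls of all 3 probes in both genotypes (adjusted p = 0.0543 to 0.512). The remaining 3 Vldlr probes were detected on 1, 0 and 0 of the 12 arrays.

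Dab2, the adaptor gene on chromosome 15, has 4 probes. The leading one, ILMN_1243329, read 8.49, 8.82 and 8.63 in deleted cells without LIF and 8.51, 8.58 and 8.62 in wild type cells without LIF. With LIF it read 7.55, 7.75 and 7.62 in deleted cells and 7.25, 7.04 and 7.14 in wild type cells. Both groups without LIF overlapped each other and stood above both groups with LIF. The increase without LIF was 1.00 ± 0.11 in deleted cells (2-fold, limma, adjusted p = 0.000112) and 1.43 ± 0.11 in wild type cells (2.7-fold, adjusted p = 2.27e-06).

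With LIF, Dab2 was also higher in deleted than in wild type cells, by 0.50 ± 0.11 on the leading probe (1.41-fold, limma, adjusted p = 0.0189) and by 0.45 ± 0.12 on ILMN_3091641 (adjusted p = 0.0344), and the groups did not overlap on either. Without LIF the corresponding values were 0.07 ± 0.11 (adjusted p = 0.762) and 0.03 ± 0.12 (adjusted p = 0.924), with overlapping groups. The interaction of -0.43 ± 0.16 did not pass (adjusted p = 0.594), so the genotype difference is not shown to depend on LIF. Leaving out wild type replicate 2 or 3 or any of the 3 deleted replicates with LIF ended the genotype call of the leading probe (adjusted p = 0.0512 to 0.0782). For ILMN_3091641 the same happened without any of the 3 wild type arrays with LIF or without deleted replicate 1 or 2 with LIF (adjusted p = 0.0509 to 0.152). Median scaling ended it for both (adjusted p = 0.328 and 0.346), as did testing all probes (adjusted p = 0.0555 and 0.0993).

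The second Dab2 probe gave the same picture of LIF as the first: 0.87 ± 0.12 in deleted cells (limma, adjusted p = 0.000395) and 1.29 ± 0.12 in wild type cells (adjusted p = 7.11e-06). Median scaling left the calls in deleted cells just outside the threshold on both probes (adjusted p = 0.0508 and 0.0638). Probe ILMN_2543173 lay at the detection floor. It was detected on 2 of 3 deleted arrays and 3 of 3 wild type arrays without LIF, and on 1 of 3 deleted arrays and 0 of 3 wild type arrays with LIF. It was thus retained through wild type cells without LIF alone. It passed in no comparison, its lowest correlation with another retained Dab2 probe was 0.63, and its fold changes are compressed. The fourth, ILMN_3019670, was detected on 0 of the 12 arrays.

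**Figure D2:**
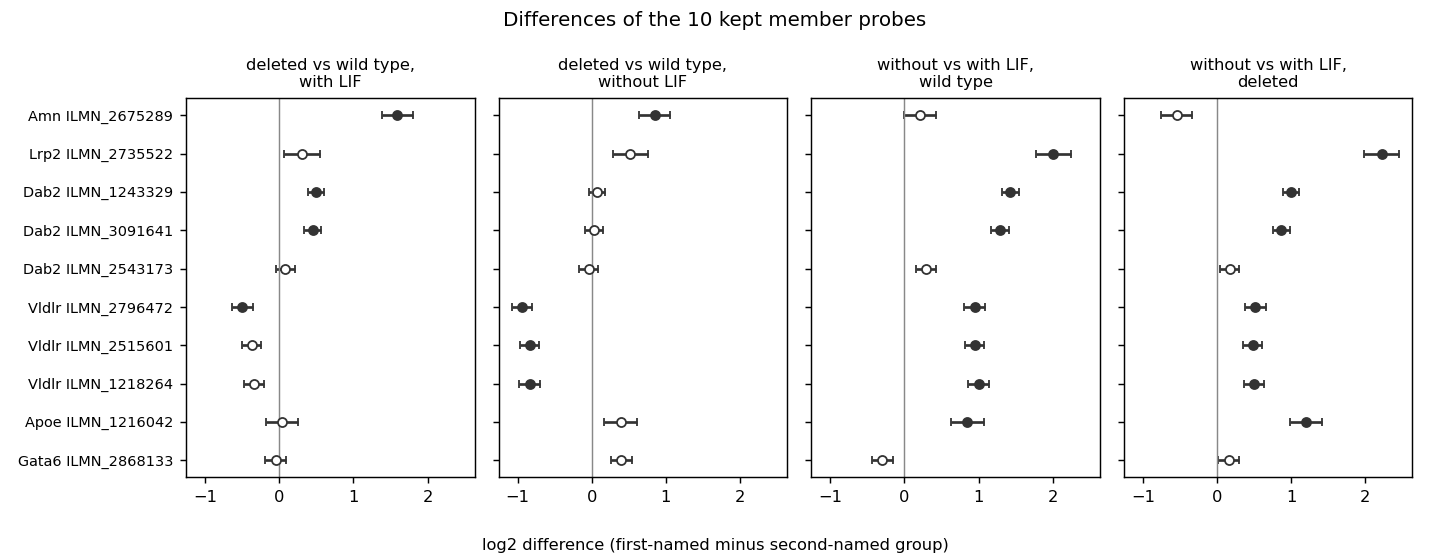
Log2 differences (x axis, first-named minus second-named group) of the 10 retained probes in the 4 comparisons, with bars of 1 SE. Filled circles passed at an adjusted p under 0.05. Lrp2, the 2 bright Dab2 probes, the Vldlr probes and Apoe lie to the right in both comparisons of cultures, and Amn lies to the right and Vldlr to the left in both comparisons of genotypes.

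Apoe, on chromosome 7, encodes apolipoprotein E, a carrier of lipids that receptors of this family take up. Probe ILMN_1216042 read 11.27, 10.49 and 10.48 in deleted cells without LIF and 10.82, 10.09 and 10.16 in wild type cells without LIF. With LIF it read 9.67, 9.28 and 9.69 in deleted cells and 9.63, 9.38 and 9.50 in wild type cells. All arrays without LIF lay above all arrays with LIF, and replicate 1 was the highest array of both groups without LIF. The increase without LIF was 1.20 ± 0.22 in deleted cells (2.3-fold, limma, adjusted p = 0.00379) and 0.85 ± 0.22 in wild type cells (1.81-fold, adjusted p = 0.016).

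The wild type call for Apoe was lost without wild type replicate 1 of the culture without LIF (0.62, adjusted p = 0.0614) and without wild type replicate 2 of the culture with LIF (0.79, adjusted p = 0.0633). Between genotypes the Apoe groups overlapped in both cultures, with 0.39 ± 0.22 without LIF (limma, adjusted p = 0.317) and 0.04 ± 0.22 with LIF (adjusted p = 0.936). The levels were ordered deleted without LIF (10.75 ± 0.45), wild type without LIF (10.36 ± 0.40), deleted with LIF (9.55 ± 0.23) and wild type with LIF (9.50 ± 0.12), and only the step between cultures exceeded the spread.

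The endoderm regulators were at the limit of detection. Gata4, Gata6 and Sox17 have 5 probes, of which 7 of 60 array readings had a detection p under 0.05 and 1 had one under 0.01, and the log2 values ran from 5.81 to 6.87. Gata4 (ILMN_2817903) was detected on 0 of the 12 arrays, with a highest value of 6.48. Of the Sox17 probes, ILMN_2747986 was detected on 1 of 12 arrays, a wild type array with LIF at 6.80, and ILMN_2784446 on 0 of 12. Neither gene was tested. What level these probes would give in endoderm cells was not measured, since the series holds no endoderm sample.

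Gata6 was the exception in part. Probe ILMN_2868133 read 6.63, 6.72 and 6.52 in deleted cells without LIF, all 3 detected, against 6.29, 6.21 and 6.14 in wild type cells without LIF, of which 0 were. With LIF it read 6.48, 6.36 and 6.56 in deleted cells and 6.87, 6.48 and 6.21 in wild type cells, with 1 array detected in each. Its highest reading was thus in a wild type array with LIF. The probe was retained through deleted cells without LIF alone, the group in which it had the highest mean, so its difference from wild type cells of that culture is a description and supports nothing. The fitted difference of 0.40 ± 0.14 missed the threshold (limma, adjusted p = 0.104). It fell under the threshold with the replicate number as a block (adjusted p = 0.0384, and 0.111 with the numbers of the other naming) and without wild type replicate 1 of the culture with LIF (adjusted p = 0.0382).

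No other comparison of Gata6 passed: the differences were -0.05 between genotypes with LIF, 0.16 between cultures in deleted cells and -0.30 in wild type cells, where leaving out wild type replicate 3 with LIF gave -0.46 (adjusted p = 0.0376). The second Gata6 probe, ILMN_1255968, was detected on 1 of 12 arrays, a deleted array without LIF. At these intensities a log2 difference understates the change in RNA, and a low level cannot be told from none.

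**Figure D3:**
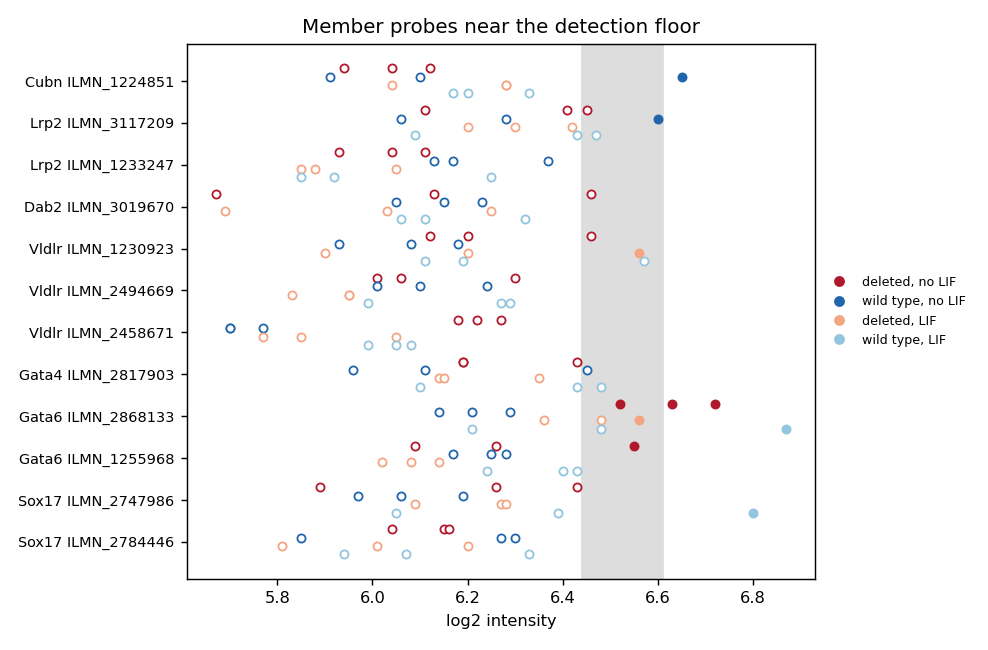
Log2 intensity (x axis) on the 12 arrays of the 11 probes that were not retained and of the retained Gata6 probe, coloured by group. Filled circles are readings with a detection p under 0.05, and the grey band is the range of the detection floor (6.44 to 6.61). Gata4 has no filled circle, Sox17 has 1 and Gata6 has 6 over its 2 probes.

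Lrp2 and Dab2 followed much the same course over the arrays (Pearson's r of 0.94, n = 12), and Apoe correlated with each at 0.79, whereas Amn had an r of -0.01 with Lrp2 and of 0.13 with Dab2. Vldlr had an r of -0.68 with Amn, 0.55 with Lrp2 and 0.53 with Dab2. These correlations describe 12 arrays that fall into 4 groups and share the culture and genotype steps given above. Among 9526 other genes, those closest to Amn in Pearson's r were Cd74 (0.964), the invariant chain of class II antigen presentation, the neuronal enolase Eno2 (0.958), the lens galectin relative Grifin (0.958), the actin regulator Coro1a (0.952) and the muscle actinin Actn2 (0.940). Closest to Lrp2 were the interferon-inducible guanylate binding proteins Gbp2b (0.993), Gbp2 (0.990) and Gbp3 (0.988), members of 1 gene family whose probes were not checked for cross-reaction, the tropomyosin Tpm1 (0.983) and Pip4p2 (0.971). Closest to Dab2 were the kinesin Kif1a (0.990), the amyloid precursor App (0.986), Rhpn2 (0.980), Vwa5a (0.978) and the proteoglycan agrin, Agrn (0.972). By Spearman's rho 2, 3 and 1 of these 5 stayed among the first 5 for Amn, Lrp2 and Dab2.

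Around these receptors stood a list of 26 further genes of the LDL receptor family, its ligands and adaptors, of which 17 had a retained probe. With no LIF, 2 of the 17 were higher and 0 lower in deleted cells, and 5 were higher and 0 lower in wild type cells (median differences 0.16 and 0.25, against -0.02 and 0.00 over all probes). Of all retained probes, 4.15% were higher and 4.60% lower in deleted cells, and 9.37% and 8.64% in wild type cells. Lrpap1, whose product RAP is the chaperone that megalin needs to fold, led in both. It read 12.35, 12.03 and 12.15 in deleted cells without LIF, against 11.17, 10.92 and 11.10 in deleted cells with LIF. In wild type cells it read 11.99, 11.75 and 11.88 without LIF, against 10.70, 10.54 and 10.45 with LIF. The differences were 1.11 ± 0.12 (limma, adjusted p = 8.97e-05) in deleted cells and 1.31 ± 0.12 (adjusted p = 7.97e-06) in wild type cells, both held whichever array was left out. Lrpap1 thus rose with Lrp2 in the same arrays.

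Of the same list, the reelin receptor Lrp8 rose by 0.72 ± 0.14 without LIF in deleted cells (limma, adjusted p = 0.00522) and by 0.52 ± 0.14 in wild type cells (adjusted p = 0.0205). The sorting receptor gene Sort1 gave 0.85 ± 0.16 in wild type cells on its leading probe (adjusted p = 0.00207). Its other retained probes gave 0.80 (adjusted p = 0.00149), 0.64 (adjusted p = 0.0527) and 0.48 (adjusted p = 0.108). Gipc1 gave 0.54 ± 0.16 in wild type cells on its leading probe (adjusted p = 0.0309). The other retained Gipc1 probes gave 0.06, -0.29 and -0.27 and did not pass. The Gipc1 call was lost without wild type replicate 1 or 3 of either culture (adjusted p = 0.0506 to 0.109). The ligand Reln was detected on 3 of 3 wild type arrays without LIF and on 0 of 3 with LIF, which makes it at least 1.22-fold higher without LIF against the detection floor (adjusted p = 0.00248). A second Lrp8 probe gave 0.35 in deleted cells (limma, adjusted p = 0.0449) and 0.24 in wild type cells, which did not pass (adjusted p = 0.125).

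Between deleted and wild type cells, 3 of the 17 were higher and 0 lower with LIF (4.78% and 2.42% of all retained probes). Without LIF 1 was higher and 0 lower (4.28% and 3.44%). With the replicate number as a block 5 and 4 were called, beside 2743 and 2771 of all 15999 retained probes. With the numbers of the other naming 3 and 2 were called, beside 1388 and 1466. The 3 with LIF were Lrp10 at 0.60 ± 0.15 (limma, adjusted p = 0.0261), Lrpap1 at 0.50 ± 0.12 (adjusted p = 0.0257) and Reln at least 1.07-fold higher, against wild type arrays of which 0 of 3 detected it (adjusted p = 0.0459). Lrp10, a family member that shuttles between the Golgi and endosomes, was again the one called without LIF, at 0.53 ± 0.15 (adjusted p = 0.0391). None of these 4 genotype calls held under every omission. With LIF, leaving out wild type replicate 2 or 3 or deleted replicate 1 or 3 ended each of the 3 calls (adjusted p up to 0.104 for Lrp10, 0.111 for Lrpap1 and 0.139 for Reln). Lrp10 and Reln also lost theirs without deleted replicate 2 with LIF, and Reln without wild type replicate 1 with LIF, wild type replicate 3 without LIF or deleted replicate 2 or 3 without LIF. Without LIF, Lrp10 lost its call when any of the 3 wild type arrays, deleted replicate 2 or 3, or wild type replicate 2 or deleted replicate 3 with LIF was left out (adjusted p = 0.0523 to 0.149). The counts of the list ran from 0 to 3 with LIF and from 0 to 2 without LIF over these omissions. After median scaling 0 of the 17 were called in either culture, beside 376 of all 15999 retained probes with LIF and 294 without.

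The machinery of clathrin-coated uptake and recycling, had 25 of 30 listed genes retained. Without LIF, 0 of 25 were higher and 4 lower in deleted cells (8.75% of all retained probes passed in either direction), and 1 was higher and 3 lower in wild type cells (18.0% of all retained probes). The other 21 passed in neither direction in each genotype, and the medians of the list were 0.03 and 0.08. Fcgrt, which encodes the neonatal Fc receptor, read 7.79, 7.53 and 7.51 in deleted cells without LIF, against 8.64, 8.67 and 8.52 in deleted cells with LIF, and fell by 1.00 ± 0.19 (limma, adjusted p = 0.00452). In wild type cells it read 7.67, 6.79 and 7.06 without LIF, against 8.61, 8.65 and 8.18 with LIF (-1.31 ± 0.19, adjusted p = 0.000316). The clathrin light chain gene Cltb fell by 0.89 ± 0.12 in deleted cells (adjusted p = 0.000338) and by 0.92 ± 0.12 in wild type cells (adjusted p = 0.00012). The transferrin receptor gene Tfrc fell by 0.58 ± 0.12 in deleted cells and by 0.54 ± 0.12 in wild type cells. These 6 calls held whichever array was left out. The remaining lower gene in deleted cells, Itsn1, was retained through deleted cells with LIF alone. It had to be bright there, so its difference of -0.45 is only a description. A second retained Itsn1 probe, ILMN_2627268, gave -0.51 in deleted cells (limma, adjusted p = 0.013).

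Between genotypes, 5 of 25 of the clathrin list were higher and 0 lower in deleted cells with LIF (4.78% and 2.42% of all retained probes), and 4 were higher and 0 lower without LIF (4.28% and 3.44%), while 20 and 21 did not pass. The medians of the list were 0.20 and 0.19, against 0.01 over all probes with LIF. The counts ran from 1 to 5 with LIF and from 1 to 4 without LIF when 1 array was left out. With LIF the count moved by over 1.5 times without any of 10 arrays, all but replicate 1 of either genotype without LIF. Without LIF it did so without any of 6 arrays: wild type replicates 2 and 3 and deleted replicate 3 of that culture, and the 3 deleted arrays with LIF. The endocytic scaffold gene Itsn1, 1 of the 5 with LIF, was retained through deleted cells with LIF alone, so it had to be high there. It read 6.82, 6.90 and 6.93 in deleted cells with LIF, all detected, against 6.34, 6.37 and 6.08 in wild type cells with LIF, of which 0 were detected. These readings are only a description. A second retained Itsn1 probe, ILMN_2627268, gave 0.61 between genotypes with LIF (limma, adjusted p = 0.00771). Through which groups that probe was retained is not given here. Ap2a2, a large subunit of the AP-2 complex that Dab2 binds, was higher in both cultures. It read 10.21, 9.87 and 10.12 in deleted cells without LIF, against 9.53, 9.24 and 9.42 in wild type cells without LIF (0.67 ± 0.13, adjusted p = 0.00741). With LIF it differed by 0.56 ± 0.13 (adjusted p = 0.0207), a call lost without wild type replicate 2 or 3 or deleted replicate 1 or 3 with LIF (adjusted p = 0.0515 to 0.0999). The recycling gene Ehd1 was 0.66 ± 0.13 higher without LIF (adjusted p = 0.00969, and 0.0571 without wild type replicate 3). A fit of only the 2 groups compared called 2 of the list with LIF and 1 without, beside 1048 and 556 of all 15999 retained probes.

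**Figure D4:**
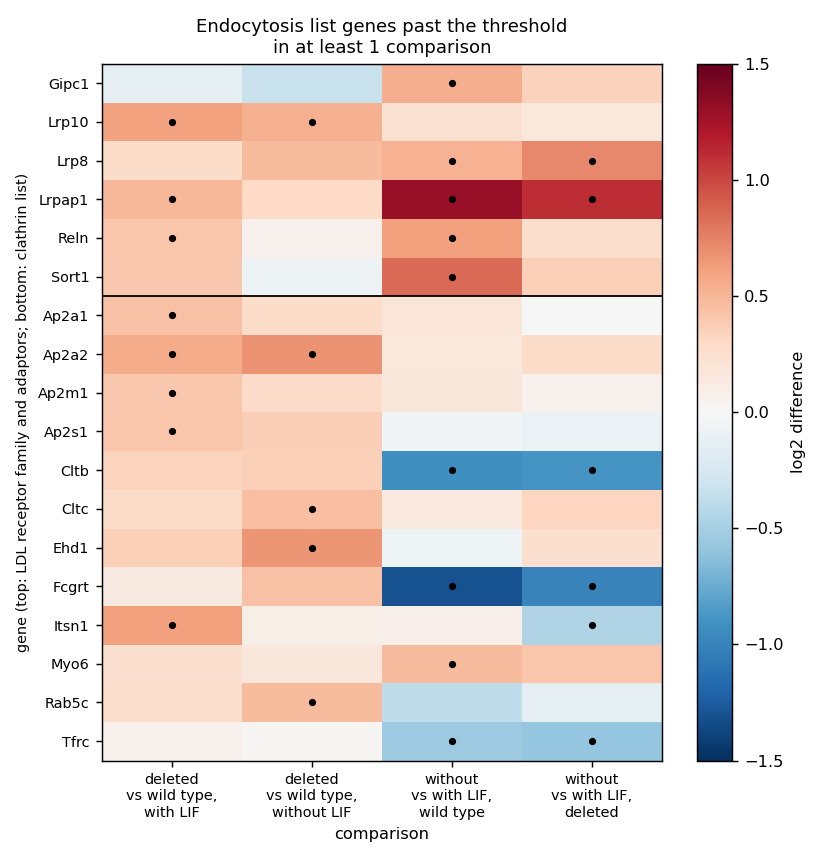
Log2 differences (colour, first-named minus second-named group) of the 18 genes of the LDL receptor family list (above the line) and the clathrin list (below it) that passed in at least 1 of the 4 comparisons (columns). Dots mark an adjusted p under 0.05. Lrpap1 has the largest increase without LIF in both genotypes, at 1.11 in deleted and 1.31 in wild type cells, and Fcgrt fell by 1.00 in deleted cells and fell by 1.31 in wild type cells.

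Of 18 listed endoderm regulators beside the 3 above, 8 had a retained probe. In deleted cells 1 was higher and 0 lower without LIF (2 called without deleted replicate 2 with LIF), and in wild type cells 2 were higher and 1 lower. The shares of all retained probes were 4.15% higher and 4.60% lower in deleted cells, and 9.37% and 8.64% in wild type cells. Klf6, a zinc finger factor with many roles outside endoderm, rose by 1.34 ± 0.12 in deleted cells (limma, adjusted p = 1.49e-05) and by 1.61 ± 0.12 in wild type cells (adjusted p = 1.22e-06), with a second, dimmer probe at 0.33 (adjusted p = 0.378) and 0.73 (adjusted p = 0.0215). Otx2, which also marks epiblast and anterior neural cells, rose by 1.53 ± 0.27 in wild type cells (adjusted p = 0.00129), at 10.20, 10.44 and 10.26 without LIF, against 8.57, 9.04 and 8.70 with LIF. Hhex, an anterior endoderm factor, fell by 0.40 ± 0.10 in wild type cells (adjusted p = 0.0119). Between genotypes 0 of the 8 passed in either culture by limma, against 7.19% of all retained probes with LIF and 7.72% without. At an unadjusted p under 0.05 there were 3 with LIF and 1 without (23.3% and 23.5% of all retained probes). With the replicate number as a block 2 were called in each culture, beside 2743 of all 15999 retained probes with LIF and 2771 without. With the numbers of the other naming 0 were called with LIF and 1 without, beside 1388 and 1466.

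Among 37 listed secreted and surface genes of endoderm, 21 were retained, and they moved in both directions with LIF: 4 higher and 5 lower without it in deleted cells, 5 higher and 5 lower in wild type cells. Of all retained probes, 4.15% were higher and 4.60% lower in deleted cells, and 9.37% and 8.64% in wild type cells. The laminin chain gene Lama1, a basement membrane product of endoderm, fell by 1.74 ± 0.10 in deleted cells (limma, adjusted p = 4.14e-07) and by 1.96 ± 0.10 in wild type cells (adjusted p = 6.61e-08), opposite to Lrp2. Spink1, a trypsin inhibitor, fell by 2.25 ± 0.23 in deleted cells. In wild type cells it read 6.23, 6.16 and 6.69 without LIF, at the detection floor with 1 of 3 arrays detected, against 7.94, 8.75 and 9.12 with LIF, and the fitted -2.24 ± 0.23 rests on that floor. The keratin gene Krt18 rose by 1.34 ± 0.26 in wild type cells (adjusted p = 0.00251). Deleted cells exceeded wild type cells in 6 genes with LIF and fell below them in 2 (13 called with the replicate number as a block), and exceeded them in 5 and fell below in 0 without LIF (9 with the block). The shares of all retained probes were 4.78% higher and 2.42% lower with LIF, and 4.28% and 3.44% without. Of all 15999 retained probes the block called 2743 with LIF and 2771 without. With the numbers of the other naming the block called 9 and 7 of the list, beside 1388 and 1466 of all retained probes. Leaving out 1 array gave 4 to 9 calls with LIF, moving by over 1.5 times without wild type replicate 2 or 3 or deleted replicate 1 or 2 of that culture, and 3 to 6 without LIF, moving so without wild type replicate 2 or 3 or deleted replicate 1 of that culture. Krt19 was 0.78 ± 0.15 higher with LIF (adjusted p = 0.00855) and 1.04 ± 0.15 higher without (adjusted p = 0.00138), and the collagen gene Col4a2 was 0.74 ± 0.13 and 0.79 ± 0.13 higher (adjusted p = 0.0047 and 0.00273). The medians of the list were 0.35 with LIF and 0.34 without.

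Of 20 listed genes of lipid transport around Apoe, 11 were retained. Without LIF 1 was higher in deleted cells (4 called with the block, 2 with the numbers of the other naming) and 3 in wild type cells, and 0 were lower. In deleted cells the block called 2534 of all 15999 retained probes, and 1556 with the numbers of the other naming. Of all retained probes, 4.15% were higher and 4.60% lower in deleted cells, and 9.37% and 8.64% in wild type cells. Leaving out 1 array gave 0 to 2 calls in deleted cells, where any of 9 arrays changed the count (all but wild type replicate 2 with LIF and replicate 1 of either genotype without LIF), and 2 to 5 in wild type cells, with 5 reached without wild type replicate 1 with LIF. Npc1, which moves cholesterol out of lysosomes, gave 1.04 ± 0.17 in wild type cells on its leading probe (limma, adjusted p = 0.000913) and 0.71 on a second (adjusted p = 0.000551), but -0.20 on ILMN_1250418 (adjusted p = 0.242), so its probes disagreed. Lipa, the lysosomal lipase, gave 0.61 ± 0.14 in wild type cells on its leading probe (adjusted p = 0.0092) and 0.22 on ILMN_2649291 (adjusted p = 0.156), so only the leading of its 2 retained probes passed. Between genotypes 1 of the 11 was lower and 0 higher in each culture. The shares of all retained probes were 2.42% lower and 4.78% higher with LIF, and 3.44% and 4.28% without. The block called 2 with LIF and 3 without, beside 2743 and 2771 of all 15999 retained probes. With the numbers of the other naming it called 1 and 1, beside 1388 and 1466. Without LIF the lower gene was Npc1, at -0.67 on its leading probe (adjusted p = 0.031) and -0.41 on the second (adjusted p = 0.035) but 0.40 on ILMN_1250418 (adjusted p = 0.0448), so its probes passed in opposite directions. Its call was lost when wild type replicate 2 or 3 or any of the 3 deleted arrays without LIF was left out. The call with LIF, Apobec1, was lost without wild type replicate 2 or 3 or any of the 3 deleted arrays with LIF. Of 14 listed partners of cubilin and megalin in vitamin B12 and retinol uptake, 2 were retained, Tcn2 and Cd320, and by limma 0 passed in any comparison, with 1 at an unadjusted p under 0.05 between genotypes with LIF and 1 between cultures in wild type cells. In these comparisons 23.3% and 30.8% of all retained probes had an unadjusted p under 0.05, and 7.19% and 18.0% passed.

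Markers of cell types were read over the same arrays. All 10 ES cell markers were retained, and their summed intensity was 36728 to 39315 in deleted and 31188 to 34055 in wild type cells without LIF, against 48452 to 52175 and 50714 to 53577 with LIF. Without LIF 0 of the 10 were higher and 6 lower in deleted cells, and 0 and 5 in wild type cells. Of all retained probes, 4.15% were higher and 4.60% lower in deleted cells, and 9.37% and 8.64% in wild type cells. Esrrb, Klf4, Sox2 and Zfp42 passed in both: -1.89, -2.04, -0.87 and -1.90 in deleted cells, and -2.55, -2.45, -1.05 and -2.56 in wild type cells. Under the other naming these would be increases, and which naming is right was not tested. Pou5f1 was lower in deleted cells with LIF (-0.50, limma, adjusted p = 0.0277) and without (-0.87, adjusted p = 0.00124). Dppa5a was higher in deleted cells without LIF (0.42, adjusted p = 0.0245). Between genotypes 9 did not pass with LIF and 8 without (7.19% and 7.72% of all retained probes passed). Of 14 markers of primitive and visceral endoderm, 6 were retained, 3 of which are Amn, Lrp2 and Dab2 themselves. The 8 not retained were Gata4, Sox17, Sox7, Foxa2, Ttr, Afp, Cubn and Apoa1. The other retained ones, Gata6, Hnf4a and Pdgfra, passed in 0 of the 4 comparisons by limma. The summed intensity of the list was 3258 to 3693 in deleted and 2837 to 2983 in wild type cells without LIF, against 2377 to 2679 and 1976 to 2121 with LIF, sums that contain Amn, Lrp2 and Dab2.

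Of 8 parietal endoderm markers 5 were retained, and 3 were higher in deleted cells with LIF (Plat, Krt19 and Col4a1) and 2 without LIF (Krt19 and Plat), against 4.78% and 4.28% of all retained probes. Their sum was 4118 to 4428 in deleted and 3114 to 3294 in wild type cells without LIF, and 2796 to 3235 in deleted and 2204 to 2397 in wild type cells with LIF. Of 7 definitive endoderm and primitive streak markers on the array 1 was retained, and it passed in no comparison. Trophoblast markers, 4 of 8 retained, had 2 higher in deleted cells in each culture (Krt7 and Tfap2c), against the same shares of all retained probes. Their sum was 2389 to 3063 in deleted and 1873 to 2023 in wild type cells without LIF, and 3927 to 4026 in deleted and 2735 to 3221 in wild type cells with LIF. Fibroblast markers, 3 of 8 retained, were all higher in deleted cells with LIF (Col1a1, Pdgfrb and Thy1), against 4.78% of all retained probes. Col1a1 was retained through deleted cells with LIF alone, so it had to be high there. The sum of the list was 1846 to 1947 in deleted and 1223 to 1490 in wild type cells with LIF. Without LIF, where 0 of the 3 passed, the sum was 1349 to 1642 in deleted and 1096 to 1429 in wild type cells. With LIF the parietal, trophoblast and fibroblast sums were higher in deleted cells, as Amn was, and their part in the differences of Amn, Dab2 and Vldlr was not tested.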

How the data were processed

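Biotin-labelled cRNA of 12 samples was hybridised to Illumina mouse bead arrays. The deposited processed table holds intensity values on a linear scale, between a minimum of 86.5 and a maximum of 35095. The deposited non-normalized table pairs a bead intensity with a detection p-value in every sample, per the file headers. GenomeStudio is named, per the submitters' processing notes, with no version. The method behind the processed values and the genome build are not given in the sources used here.

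Processed intensities were background-corrected (normexp, offset 50), put on the log2 scale and quantile normalized. Columns of the non-normalized table were assigned to samples by their identical ranking of the probes rather than by name, for detection and for 2 alternatives (neqc and median scaling). Probes detected at a p under 0.05 on all 3 arrays of a group were retained (15999 of 45281). limma 3.58.1 in R 4.3.3 fitted 4 group means (8 residual degrees of freedom, two-sided, Benjamini-Hochberg over retained probes). Offsets compress differences of dim probes, and the number of arrays limits the precision. Gene IDs of all 21 probes matched RefSeq with the same symbol. Of all probes, 34885 had 1 gene symbol, 18 several and 10378 none.

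The members, gene lists and tests were chosen with earlier results of these data known. A gene's leading probe is its retained probe of highest mean. From each list up to 4 genes past the threshold with the largest difference could be named per comparison, and for Amn, Lrp2 and Dab2 the 5 genes of highest Pearson's r. The fit was tested on simulated data.

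Replicate numbers come from the sample titles. Deviations from the group means of same-numbered arrays correlated at 0.29 to 0.48 between genotypes with LIF, at 0.25 to 0.67 between genotypes without LIF and at 0.30 to 0.55 between cultures in deleted cells. Between cultures in wild type cells the lowest was -0.05. With the numbers of the other naming they ran from -0.38 to 0.17 between cultures in deleted cells and from -0.39 to 0.43 in wild type cells. The main fit paired no arrays, and the replicate number entered as a block only in alternatives.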

Additional observations from a re-analysis of the deposited data

How the results depend on the processing

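Of the called differences of the members, those of Lrp2, Apoe and the bright Dab2 and Vldlr probes between cultures, of Amn and Vldlr between genotypes, and of the bright Dab2 probes with LIF kept their direction in every alternative run on the processing, the samples or the block and in every omission of 1 array. The naming of the non-normalized table is apart from these: by construction it turns the sign of every difference between cultures, those called included, and it was computed for the genotype comparisons alone. Median scaling lowered the probes called of the 10 to 1 between genotypes in each culture, to 2 between cultures in deleted cells and to 4 in wild type cells; the cause was not tested. It also moved the share of higher calls over all probes: 92.8% of 376 with LIF (66.4% of 1151 after quantile normalization) and 91.5% of 294 without LIF (55.5% of 1235) between genotypes, and 21.1% of 470 in deleted cells (47.4% of 1400) and 31.7% of 982 in wild type cells (52% of 2882) between cultures. With no filter, where 45281 probes are tested, 1 was called between genotypes with LIF and 4 between cultures in deleted cells, beside 594 and 938 of all probes. With 1 probe per gene 6 probes were tested, and 2 were called between genotypes without LIF and 4 between cultures in each genotype. Of all 9527 probes then tested, 999 were called between genotypes without LIF, and 1027 and 2010 between cultures in deleted and wild type cells. Omitting 1 array left 1 to 4 calls between genotypes with LIF and 4 to 7 between cultures in deleted cells. Of all 15999 retained probes it left 311 to 1523 and 740 to 1549. In the likeness lists Spearman's rho kept 2, 3 and 1 of the 5 genes for Amn, Lrp2 and Dab2.

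Among the other alternatives, and for the genotype comparisons under that naming, changes of sign touched only differences that had not passed. With the cultures named as in the non-normalized table, the dim Dab2 probe ILMN_2543173 gave -0.04 with LIF and 0.08 without between genotypes, and Gata6 0.40 and -0.05. Median scaling gave 0.01 for ILMN_2543173 without LIF. Over omissions of 1 array, the genotype difference with LIF ran from -0.02 to 0.13 for ILMN_2543173, from -0.03 to 0.18 for Apoe and from -0.21 to 0.13 for Gata6. Without LIF it ran from -0.02 to 0.15 for Dab2 ILMN_1243329, from -0.05 to 0.09 for ILMN_3091641 and from -0.12 to 0.08 for ILMN_2543173. Amn between cultures in wild type cells ran from -0.05 to 0.41, and the interaction from -0.12 to 0.45 for Lrp2 and from -0.20 to 0.00 for ILMN_2543173.

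With the replicate number as a block, 2743 probes of the array were called between genotypes with LIF, 2771 without LIF, 2534 and 4445 between cultures in deleted and wild type cells, and 20 for the interaction, against 1151, 1235, 1400, 2882 and 3 without the block. It changed no call of a member other than those given for Vldlr, Lrp2 and Gata6. With the replicate numbers of the other naming as the block, an alternative chosen after seeing the data, 1388, 1466, 1556, 3166 and 9 probes were called in the same order, and no member's call changed from the fit without a block.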
